A study of Mus musculus with 13 samples.

Results

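The vesicular glutamate transporters Slc17a7 (VGLUT1), Slc17a6 (VGLUT2) and Slc17a8 (VGLUT3) were taken by gene name from both deposited tables. Of these 3 genes, 2 had a row among the 15114 genes of the cell table, and all 3 had a row among the 32285 genes of the spot table. Every gene of the cell table had a count in at least 10 cells, and Slc17a8 was not analysed there. The members were chosen by name and not by a rule on their values, but with earlier results of these data known.

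A vesicular glutamate transporter fills synaptic vesicles with glutamate, drawing on the proton gradient that the vacuolar ATPase builds across the vesicle membrane. Slc17a7 is the main form of excitatory neurons in the cerebral cortex and hippocampus, and Slc17a6 that of the thalamus, hypothalamus and brainstem. Cells with both are known from the retrosplenial cortex, a midline cortical area that serves spatial memory and navigation. Slc17a8 marks sparse neurons, among them some serotonergic, cholinergic and GABAergic cells, and near-projecting neurons of deep cortical layers.

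Neurons of wild-type mice of the B6 strain were microdissected in acute slices, dissociated, and counted one cell at a time in 11 samples from 3 animals, 152 cells in 3 samples of animal 1, 304 in 4 samples of animal 2 and 309 in 4 samples of animal 3. Each cell carried a dissection level, anterior (256 cells), medium (217) or posterior (292). Separately, 2 cryosections of 10 µm from brains of wild-type mice were profiled on Visium slides, whose spots each take RNA from a small area that can hold several cells. They are called S4 (1022 spots) and S8 (951 spots) here, and the labels used here name no treatment and no age or sex, and no strain for the sections.

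Totals per sample of cells ran from 2306470 to 15974543 counts over 32 to 80 cells, and the sections held 8436518 and 6389042 counts. Depth differed between animals, with a median of 65843 counts per cell in animal 1, 132797 in animal 2 and 185995 in animal 3. No 2 cells held identical counts (0 pairs), and 162 spot barcodes occurred in both sections. The labels call the cells neurons, and of the lists of other cell types the microglial and endothelial markers had 0 rows in the cell table.

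Slc17a7 was close to universal in the dissociated cells. It had a count in 756 of 765 cells (98.8%), and 14155 counts in all, with a median of 14 in the cells that had any. Per sample its level ran from a lowest of 107 CPM, the gene's counts scaled to the total of its library, through a median of 115 to a highest of 202 in sample 3, with a mean of 129 ± 29.5 (SD, n = 11). Sample 3 of animal 1 and sample 14 of animal 2 (161 CPM) stood above the rest, and the samples of animal 3 lay within 107 to 115 CPM. By animal the level was 144 CPM in animal 1, 131 in animal 2 and 111 in animal 3.

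Slc17a6 was confined to a minority of cells but was not weak where it occurred. It had a count in 179 of 765 cells (23.4%, exact binomial 95% interval 20.4 to 26.6%), with 3607 counts in all and a median of 16 in the cells that had any. Per sample the level ran from 3.90 CPM in sample 3, which had 9 counts over 32 cells, through a median of 28.7 to 43.5 CPM in sample 16. The mean was 28.3 ± 10.3 CPM (SD, n = 11), and 30.7 ± 6.79 (n = 10) without sample 3, which had the fewest cells and counts. Sample 3 was thus the highest of the 11 for Slc17a7 and the lowest for Slc17a6.

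**Figure D1:**
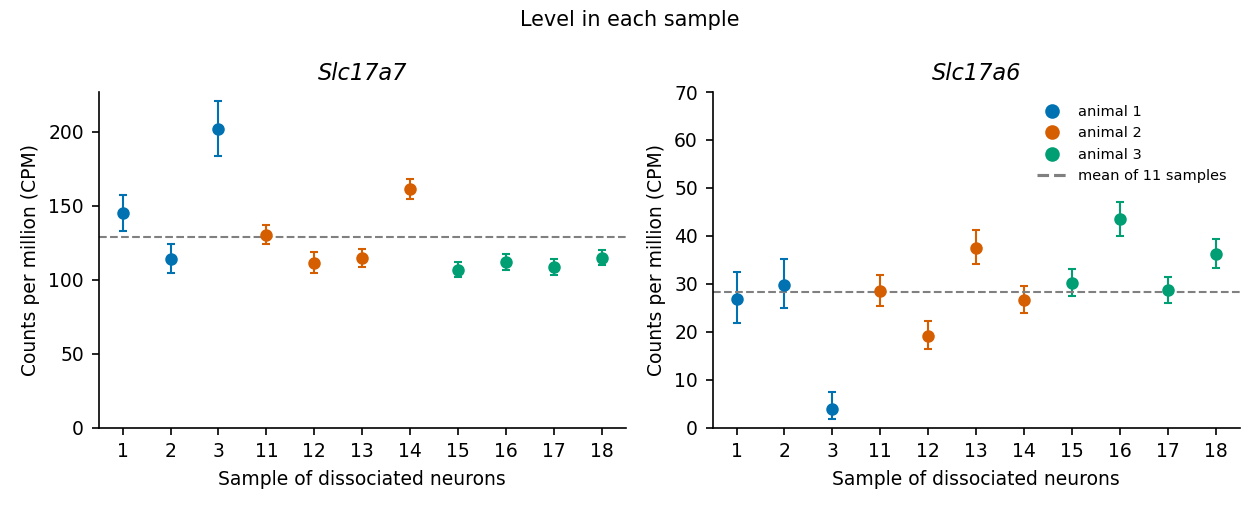
Level of Slc17a7 and of Slc17a6 in each of the 11 samples of dissociated cells, as CPM of the summed counts, with exact Poisson 95% intervals that cover counting error only and a dashed line at the mean over samples. Sample 3 sits at 202 CPM for Slc17a7 and 3.90 CPM for Slc17a6, and the other 10 samples lie between 107 and 161 and between 19.2 and 43.5 CPM.

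The share of cells with a Slc17a6 count was 16.4% in animal 1, 20.4% in animal 2 and 29.8% in animal 3. That order is also the order of depth, so each cell was thinned to 54512 counts and the 77 shallower cells were left out. The share was then 10.3%, 18.1% and 24.0% in the same order, and 19.6% over all 688 cells kept, while Slc17a7 stayed at 97.4%. How far the animals themselves differ was not tested.

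Nearly all cells with Slc17a6 also had Slc17a7, as did nearly all cells of the set. Slc17a7 had a count in 756 of 765 cells, so a large overlap was given in advance. It does not show whether the 2 genes go together. Of the 179 cells with Slc17a6, 175 also had Slc17a7 (97.8%, exact binomial 95% interval 94.4 to 99.4%). Another 581 cells had Slc17a7 alone, 4 had Slc17a6 alone and 5 had neither. At 5 or more counts of each gene, 109 of the 133 cells with Slc17a6 still held both, where 87.7% of all cells had Slc17a7. The 9 cells without Slc17a7 came from animals 1 and 2, were spread over classes 1, 2, 3, 5, 8 and 11 (described next), and their totals ran from 16307 to 92740 counts, all under the median of all cells.

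The cells were clustered into 11 classes with the 3 transporters left out, so that neither gene helped to draw the classes. Markers of cortical excitatory neurons other than Slc17a7 (5 of 6 listed) were above 0 in every class and summed to 339 to 975 CPM. Class 1 (203 cells) was led by Calb1, Penk and Ddit4l, class 2 (122) by Thsd7a, Pygm and Hsd11b1, class 3 (76) by C1ql2, Qrfpr and Reln, and class 6 (70) by Ptprm, Aldh1l1 and Tmem215. Class 4 (74 cells, led by Penk, Oprk1 and Osr1) was layer 6 intratelencephalic-like, class 5 (71, Ighm, Rprm and Acta2) layer 6 corticothalamic-like, and class 7 (65, C1ql2, Pvalb and Nrtn) layer 5 extratelencephalic-like. Every layer 5 extratelencephalic marker with a row was also raised in class 3. That class was left unnamed because other lists had more genes among its 10 leading genes. Class 8 (38 cells) was led by Calb1, Ddit4l and Penk as class 1 was, and also had Cxcl14 and Cbln4 among its 10 leading genes. The smallest were class 9 (24 cells, BC006965, Ccdc80 and Gpr115), class 10 (11, Cplx3, Tnmd and Ctgf, layer 6b-like) and class 11 (11, Kcnip1, Pvalb and Nxph1).

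Slc17a6 was highest in classes 8 and 11, intermediate in class 6, and near 0 in classes 3, 4, 9 and 10. In class 8 it had a count in 28 of 38 cells (73.7%) and in class 11 in 8 of 11 (72.7%), against 39 of 70 in class 6 (55.7%), 21 of 65 in class 7 (32.3%), 43 of 203 in class 1 (21.2%), 22 of 122 in class 2 (18.03%) and 12 of 71 in class 5 (16.9%). It had a count in 3 of 74 cells of class 4 (4.05%) and 3 of 76 of class 3 (3.95%). No cell of class 9 (0 of 24, which allows a share of up to 12.5%) or class 10 (0 of 11, up to 27.3%) had one.

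The order of these shares was not the order of depth. Class 8 was the shallowest class, with a median of 77921.5 counts per cell, and class 4, at 133215, was deeper. After thinning, 21 of 30 cells of class 8 had a count, and the share was 52.4% in class 6, 25.4% in class 7 and 1.56% in class 4, which can serve as the background for a class with little or no Slc17a6. Class 8 held 4.97% of the cells and 21.4% of the Slc17a6 counts, and class 6 held 9.15% and 25.3%.

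The level in class 8 was 200 CPM in animal 2 (19 cells) and 288 in animal 3 (17 cells), and 94.8 in the 2 cells of animal 1, too few for the test. The next highest tested sum was 107 CPM, in class 6. In edgeR's quasi-likelihood test on sums per animal and class, class 8 exceeded the mean of the other tested classes by 3.97 on the log2 scale (SE 0.55, 15.7-fold, adjusted p = 0.000244 with Benjamini-Hochberg adjustment over 13315 genes). In that contrast 5.57% of genes were called at an adjusted p under 0.05, and of the members Slc17a6 was called and Slc17a7 was not. The call held in the 9 alternatives that gave a value, at 3.56 to 5.13.

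In class 6 Slc17a6 stood at 107 CPM in animal 2 and 67.2 in animal 3, and at 393 in the 5 cells of animal 1. Class 6 exceeded the mean of the others by 2.30 (SE 0.58, edgeR quasi-likelihood adjusted p = 0.0465, percent of genes called 1.98%). The call was lost in 15 of 22 alternatives. Among these were DESeq2 (adjusted p = 0.205), sums per sample (0.0854) and clustering resolution 1.5 (0.0768). So were the fits without animal 1 (0.155) and without sample 3 (0.0774, tried after seeing the data).

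The other tested classes lay lower and overlapped one another. By animal 1, 2 and 3, class 7 was at 38.2, 16.3 and 34.8 CPM, class 1 at 37.2, 23.8 and 14.1, class 5 at 1.86, 28.3 and 39.1, and class 2 at 12.4, 6.64 and 19.96. None of these 4 was called against the mean of the others (edgeR adjusted p = 0.578 to 0.940, percent of genes called 5.79%, 10.5%, 7.5% and 6.34% for classes 1, 2, 5 and 7), and in each the spread between animals was wide.

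In class 4, the layer 6 intratelencephalic-like cells, Slc17a6 stood at 0, 7.399 and 0.340 CPM in animals 1, 2 and 3, and 33 of its 35 counts came from 1 cell of animal 2. It lay 3.15 below the mean of the others on the log2 scale (fold change -3.15, SE 0.79, edgeR adjusted p = 0.0175, percent of genes called 7.33%). Without animal 3 the value was -1.56 (adjusted p = 0.530). Sums of 5 or more cells bring in class 9, at 0 counts, and the 5 cells of class 6 in animal 1. With them the value was -1.93 (adjusted p = 1), with an SE of 1768 that leaves it without a reading. Class 3 was at 3.22 and 2.19 CPM in animals 1 and 2 and was not called (-3.41, SE 0.97, edgeR adjusted p = 0.0607, percent of genes called 3.49%), though it passed with DESeq2 (adjusted p = 0.0170), without the animal block (0.0296), in thinned cells (0.0320) and in sums per sample without sample 12 (0.00744).

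Neighbours in the order of levels were compared in the same fit. Class 8 against class 6 gave 1.46 (SE 0.89, edgeR adjusted p = 0.469), class 6 against class 7 1.56 (SE 0.84, adjusted p = 0.441), and class 3 against class 4 -0.23 (adjusted p = 0.976). None of these differences was called, which does not show that the neighbours are alike. Between classes further apart, class 2 lay below class 8 by a log2 difference of -4.16 (SE 0.86, adjusted p = 0.00491, percent of genes called 8.06%). Class 3 lay below class 6 by -5.00 (SE 1.14, adjusted p = 0.0223, percent called 2.14%). Other large differences were not called. Class 1 against class 3 gave 3.19 (SE 1.03, edgeR adjusted p = 0.102) and class 6 against class 2 gave 2.70 (SE 0.84, adjusted p = 0.109). Class 4 against class 5 gave -3.02 (SE 0.89, adjusted p = 0.0622). Classes 8 and 1, which share their 3 leading genes, differed by 3.26 (SE 0.87, edgeR adjusted p = 0.0637), a direct comparison added after seeing the data.

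**Figure D2:**
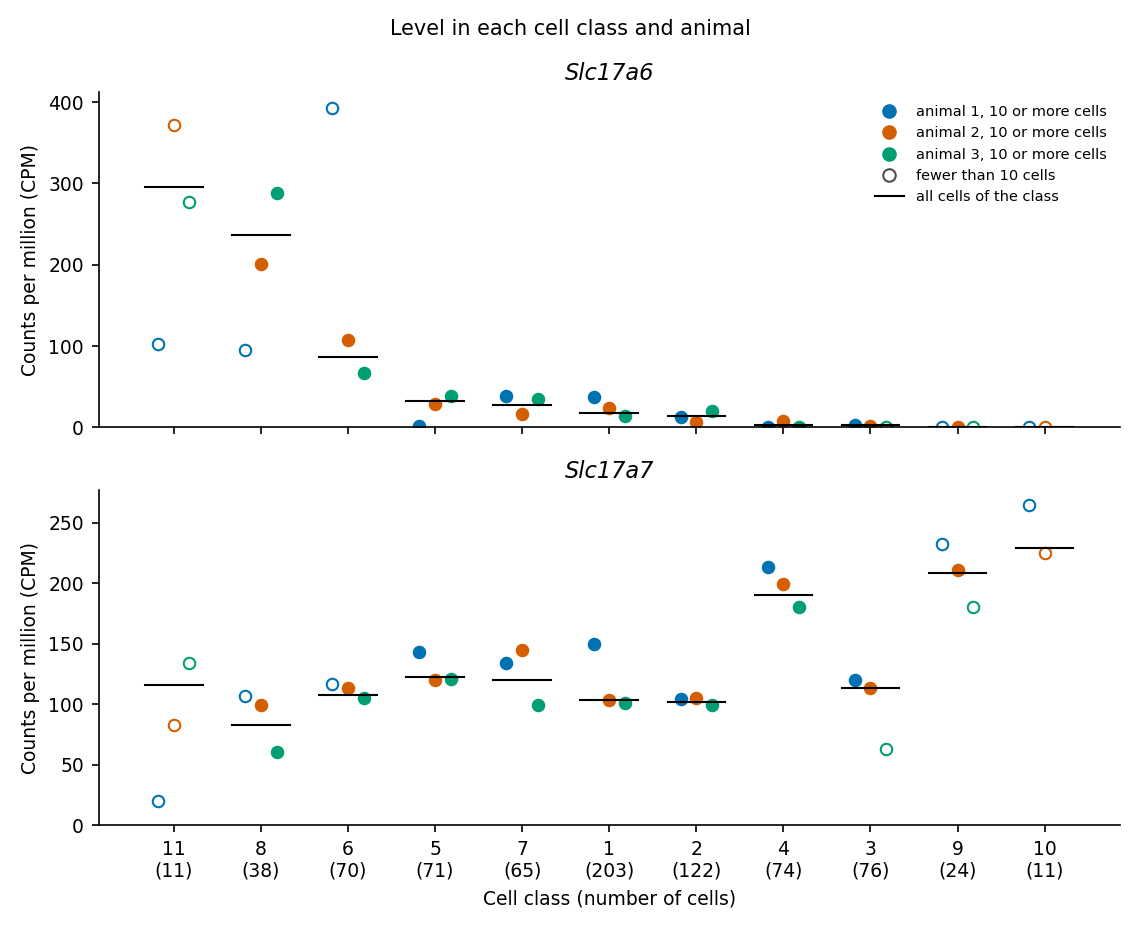
Slc17a6 and Slc17a7 in each of the 11 classes, as CPM of counts summed per animal (points; hollow where the sum holds fewer than 10 cells) and over all cells of the class (black line). Slc17a6 sums of class 8 in animals 2 and 3 lie at 200 and 288 CPM, while Slc17a7 is highest in classes 10, 9 and 4.

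Slc17a7 varied far less between classes. Class 4 had the highest level among the tested classes, at 214, 199 and 180 CPM in animals 1, 2 and 3, against 61.0 to 150 CPM in the sums of every other tested class, so that the groups did not overlap. The difference was 0.86 (SE 0.13, 1.81-fold, edgeR quasi-likelihood adjusted p = 0.000288), and it held in 12 of 12 alternatives at 0.70 to 0.98. Class 9 (209 CPM) and class 10 (229 CPM), both too small for the test, also had high Slc17a7 and 0 counts of Slc17a6.

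Class 8 had the lowest Slc17a7, at 99.4 CPM in animal 2 and 61.0 in animal 3. The difference of -0.62 (SE 0.19) missed the threshold in edgeR (adjusted p = 0.0606) and passed it with DESeq2 (adjusted p = 0.0397) and with sums of 5 or more cells (0.0371). The other 6 classes gave adjusted p = 0.492 to 1. Class 3 against class 4 differed by -0.88 (SE 0.21, adjusted p = 0.0204, percent of genes called 4.76%) and class 4 against class 5 by 0.65 (SE 0.19, adjusted p = 0.0557).

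Of all counts of the pair Slc17a6 and Slc17a7, Slc17a6 took 20.3%. This share is a share of counts and not a ratio of molecules, since the genes differ in length, but it can be set side by side between classes. It was 74.1% in class 8, 71.8% in class 11 and 44.5% in class 6, then 20.7% in class 5, 18.7% in class 7, 14.8% in class 1, 12.1% in class 2, 2.12% in class 3 and 1.60% in class 4. Within class 8, the 28 cells with Slc17a6 had 71.0 CPM of Slc17a7 and the 10 cells without had 116, and in class 3 the 3 cells with it had 61.3 and the 73 without 115. Class 11 went the other way, at 124 CPM in 8 cells with Slc17a6 and 78.0 in 3 cells without, and the values were 104 and 112 in class 6, 117 and 121 in class 7, and 108 and 103 in class 1. These gaps were not tested. Few cells carried much of the signal: 13 cells with 50 or more Slc17a6 counts held 22.8% of them, 4 in class 6, 3 each in classes 8 and 11, 2 in class 7 and 1 in class 5.

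**Figure D3:**
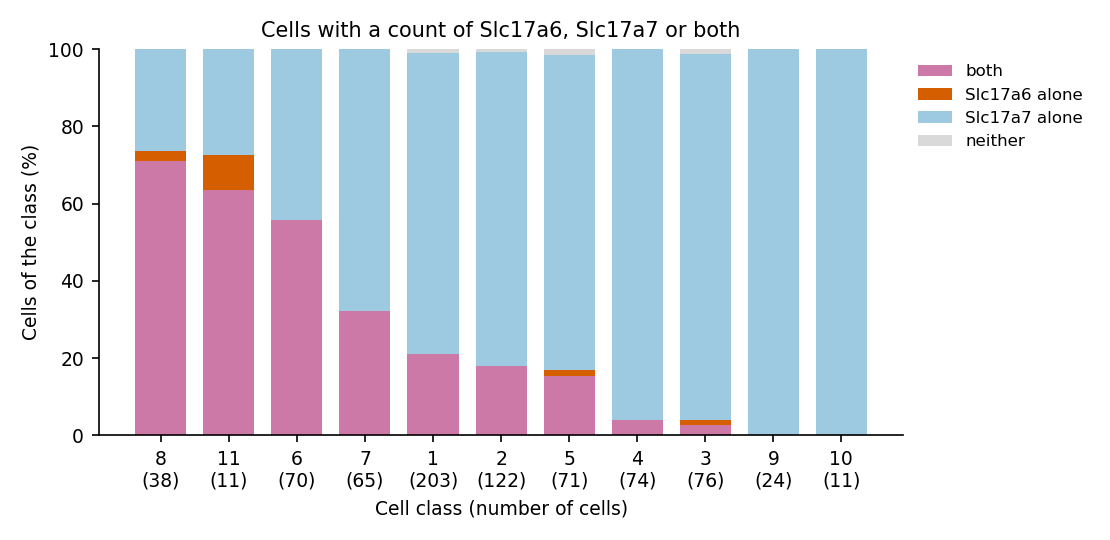
Percent of the cells of each class with a count of both Slc17a6 and Slc17a7, of 1 of them, or of neither. Cells with both make up 71.1% of class 8 and 55.7% of class 6, and none of classes 9 and 10.

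Markers that the clustering could use place these classes as follows. Tshz2 is a zinc finger gene of both the retrosplenial and the near-projecting list. Its level was 1137 CPM in class 8, 1441 in class 11, 842 in class 2, 757 in class 6 and 726 in class 7. It was at 550 CPM in class 1, 421 in class 3 and 311 in class 5. In class 9 it was at 55.6, in class 4 at 15.2 and in class 10 at 1.84. Lypd1, another gene of the near-projecting list, was highest in class 11 (1312 CPM). It was at 848 CPM in class 3, 651 in class 7, 572 in class 10, 220 in class 6 and 148 in class 8. The order of Tshz2 was not that of Slc17a6, since class 3 had 2.46 CPM of Slc17a6 and class 2 had 14.02. Class 2 met the naming rule as retrosplenial-like on Tshz2, Scnn1a and Cxcl14. Class 8 lay above class 2 for Tshz2 and for Cxcl14 (98.9 against 27.4 CPM), but below it for Scnn1a (0.306 against 65.2 CPM). Thalamic markers (4 of 6 with a row), of a region whose neurons are known for Slc17a6, summed to 139 CPM in class 8 and 65.1 to 473 over all classes, of which Rora gave 122 and Ramp3 16.5 in class 8, with Tcf7l2 at 0.306 CPM and Prkcd at 0. The cortical gene Neurod6 was at 392 CPM in class 8.

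The astrocyte list moved with Slc17a6 in part. All 6 of its genes had a row, and it summed to 739 CPM in class 8, 344 in class 6, 295 in class 7 and 262 in class 11, against 13.5 to 171 in the other classes. In class 8 Aldoc alone gave 727 of this, while the defining markers Aqp4 and Gfap were at 0, Slc1a3 at 0.306 and Gja1 at 2.1 CPM. GABAergic markers (4 of 9 with a row) summed to 2.1 CPM in class 8 and 2.0 in class 6. In class 11 they summed to 521 CPM, of which Pvalb gave 517, with Gad1 at 0 and Gad2 at 1.7.

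Other genes of vesicular loading and glutamate supply (33 genes, 27 tested) did not follow Slc17a6 as a group. They were in the clustering, so their calls are a description. In class 8, 1 was higher and 4 were lower, where 2.62% and 2.95% of all genes were called higher and lower, and their median was -0.05 beside -0.10 over all genes. The vesicle protein gene Sv2c was higher (5.11 and 22.8 CPM in the 2 sums, mean 1.14 and highest 6.83 over the 19 other sums, log2 difference 5.53, SE 1.18, edgeR adjusted p = 0.0138). The mitochondrial glutamate carrier Slc25a22 was lower (-0.86, SE 0.24, adjusted p = 0.0423), as were Sv2b (-0.84, SE 0.20, adjusted p = 0.0177) and the vacuolar ATPase accessory subunit Atp6ap1 (-0.59, SE 0.15, adjusted p = 0.0273).

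Of the 10 genes of glutamate uptake and glial recycling, 7 were tested. In class 8, 0 were higher and 1 was lower, the plasma membrane transporter Slc1a2, at 88.5 and 101 CPM in the 2 sums against a mean of 266 in the others (-1.02, SE 0.18, edgeR adjusted p = 0.00216). In class 6 the same gene was higher, at 344 and 372 CPM (1.17, SE 0.15, edgeR adjusted p = 0.000150). Classes 8 and 6 thus lay on opposite sides for Slc1a2, and class 11 was too small for the test. Of the other SLC17 family genes, 2 of 6 had a row and 1 was tested, and it was not called in class 8, 6 or 4.

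Along the axis of dissection, Slc17a6 was higher at the medium level than at the anterior level in each animal. In animals 1, 2 and 3 it stood at 18.002, 19.7 and 22.4 CPM anterior, 36.0, 37.5 and 54.7 medium, and 23.0, 34.4 and 31.3 posterior. Anterior and medium values did not overlap, and the medium value was the highest of the 3 levels in 3 of 3 animals. The difference of medium over anterior was 1.04 (SE 0.24, unadjusted p = 0.00149 in edgeR), but it was not called over all 13628 genes (adjusted p = 0.928 with Benjamini-Hochberg adjustment, percent of genes called 0.00734%, and 573 genes at an unadjusted p under 0.05), and DESeq2 gave an adjusted p of 0.0672.

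Posterior over anterior gave 0.55 (SE 0.24, edgeR adjusted p = 0.838, percent of genes called 0.103%) and posterior over medium -0.49 (SE 0.24, adjusted p = 0.778, with 0 genes called and 866 at an unadjusted p under 0.05). The share of cells with Slc17a6 was 23.4% anterior, 27.6% medium and 20.2% posterior, and 18.2%, 24.7% and 17.4% after thinning. Slc17a7 was at 165, 138 and 119 CPM anterior, 159, 117 and 104 medium, and 126, 135 and 106 posterior in animals 1, 2 and 3, and its levels overlapped (edgeR adjusted p = 0.928 to 1.00).

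**Figure D4:**
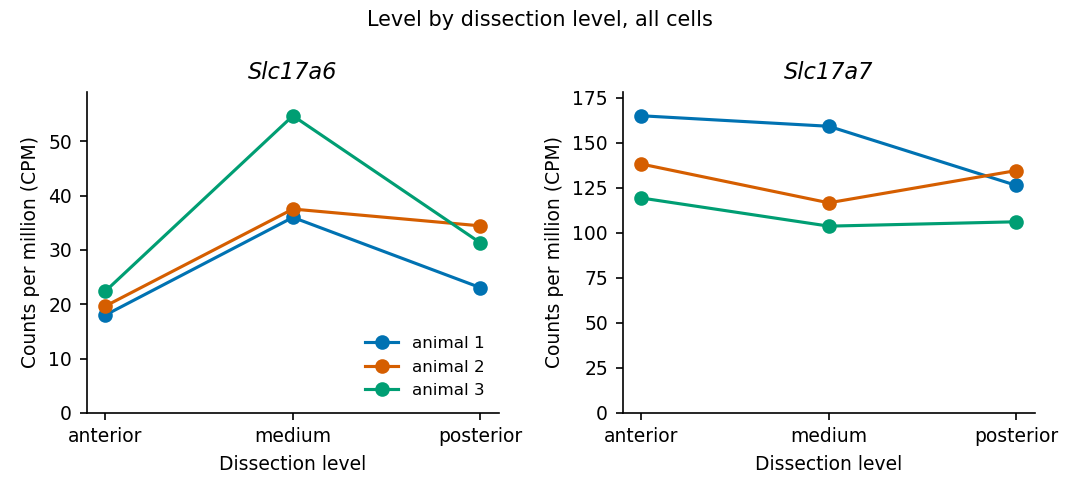
Slc17a6 and Slc17a7 at the anterior, medium and posterior dissection level, as CPM of counts summed per animal and level, with a line for each animal. For Slc17a6 the medium value is the highest in each of the 3 animals.

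The classes of cells differed between levels, as all 76 cells of class 3 were posterior and classes 9 and 10 had 17 and 6 anterior cells. Within class 8, Slc17a6 was at 423 CPM medium (12 of 13 cells), 175 anterior (9 of 10) and 158 posterior (7 of 15), and within class 7 at 62.7, 19.3 and 16.4. Class 6 went another way, at 82.9 CPM medium, 49.2 anterior and 126 posterior. With class as a term in the fit, medium over anterior was 0.87 (SE 0.52, edgeR adjusted p = 0.999), with 0 of 10898 genes called and 444 at an unadjusted p under 0.05. Posterior over anterior was 0.64 (SE 0.54, adjusted p = 0.997, percent of genes called 0.0459%). None of the 28 loading and 6 uptake genes tested by level was called in either comparison with the anterior level.

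In the sections all 3 transporters could be followed. Slc17a7 had a count in 1926 of 1973 spots (97.6%), with a level of 760 CPM in S4 and 817 in S8. Slc17a6 had a count in 320 spots (16.2%), at 27.1 CPM in S4 and 26.1 in S8. In thinned spots the share was 12.3% in S4 and 11.5% in S8. Of the spots with Slc17a6, 314 also had Slc17a7 and 6 did not, but a spot can hold several cells, so this does not show both genes in 1 cell.

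The spots fell into 10 zones, clustered without the 3 transporters and with each gene centred within its section, and described by leading genes only. Slc17a6 peaked in zone 3 (266 spots, led by Tshz2, Cbln1 and C1ql2), at 70.5 CPM in S4 and 83.1 in S8. Next came zone 7 (158 spots, led by Rspo1, Rorb and Pamr1) at 35.2 and 41.5 CPM. Zone 4 (Etnk2, Stard8 and Hkdc1) had 25.5 and 20.3, zone 6 (Myl4, Scn4b and Fbxo32) 28.9 and 11.6, and zone 2 (Trh, Dlk1 and Gpr101) 22.4 and 12.7. Zone 1 (Cyp26b1, Ccn2 and Nnat) had 11.8 and 18.9 CPM, zones 8, 9 and 10 lay between 8.20 and 22.6, and zone 5 (Foxp2, Ighm and Trbc2) had 13.7 and 9.75, the lowest mean of the 9 tested zones. Both sections of zone 3 lay above every other sum, and zone 7 above the rest, while zones 4, 6, 2 and 1 overlapped.

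Zone 3 held 13.5% of the spots and 35.9% of the Slc17a6 counts. In edgeR's quasi-likelihood test it exceeded the mean of the other zones by 2.01 (SE 0.20, 4.04-fold, adjusted p = 1.48e-10, percent of genes called 10.2%), and it exceeded zone 7 by 1.09 (SE 0.28, adjusted p = 0.00759, percent called 6.94%). The call held in 8 of 8 alternatives at 1.96 to 2.27. Zone 7 itself missed the threshold against the mean (0.78, SE 0.27, adjusted p = 0.100, percent of genes called 4.31%) and passed it in 1 of 7 alternatives, at clustering resolution 1.5 (1.01, adjusted p = 0.0113). The threshold was also missed by zone 7 against zone 4 (0.69, SE 0.34, adjusted p = 0.451), while zone 2 lay below zone 7 (-1.07, SE 0.36, adjusted p = 0.0388, percent called 12.1%). Zone 5, led by genes of layer 6 corticothalamic cells, was lower (-1.06, SE 0.32, adjusted p = 0.0257, percent of genes called 7.23%), a call lost with DESeq2 (adjusted p = 0.133), without the section block (0.0827 for a value of -1.07) and at other clustering resolutions.

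Slc17a7 ran the other way in zone 3, at 461.5 CPM in S4 and 525 in S8 against 622 to 1018 in every other sum. The difference was -0.68 (SE 0.11, edgeR adjusted p = 2.34e-05) and was called in 8 of 8 alternatives, and zone 3 lay below zone 7 by -0.56 (SE 0.15, adjusted p = 0.0109). Slc17a6 made up 13.5% of the pair's counts in zone 3, and both members measured well enough for a test were called there, in opposite directions. In bulk spots, fewer cells with a transporter and less of its RNA per cell cannot be told apart.

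**Figure D5:**
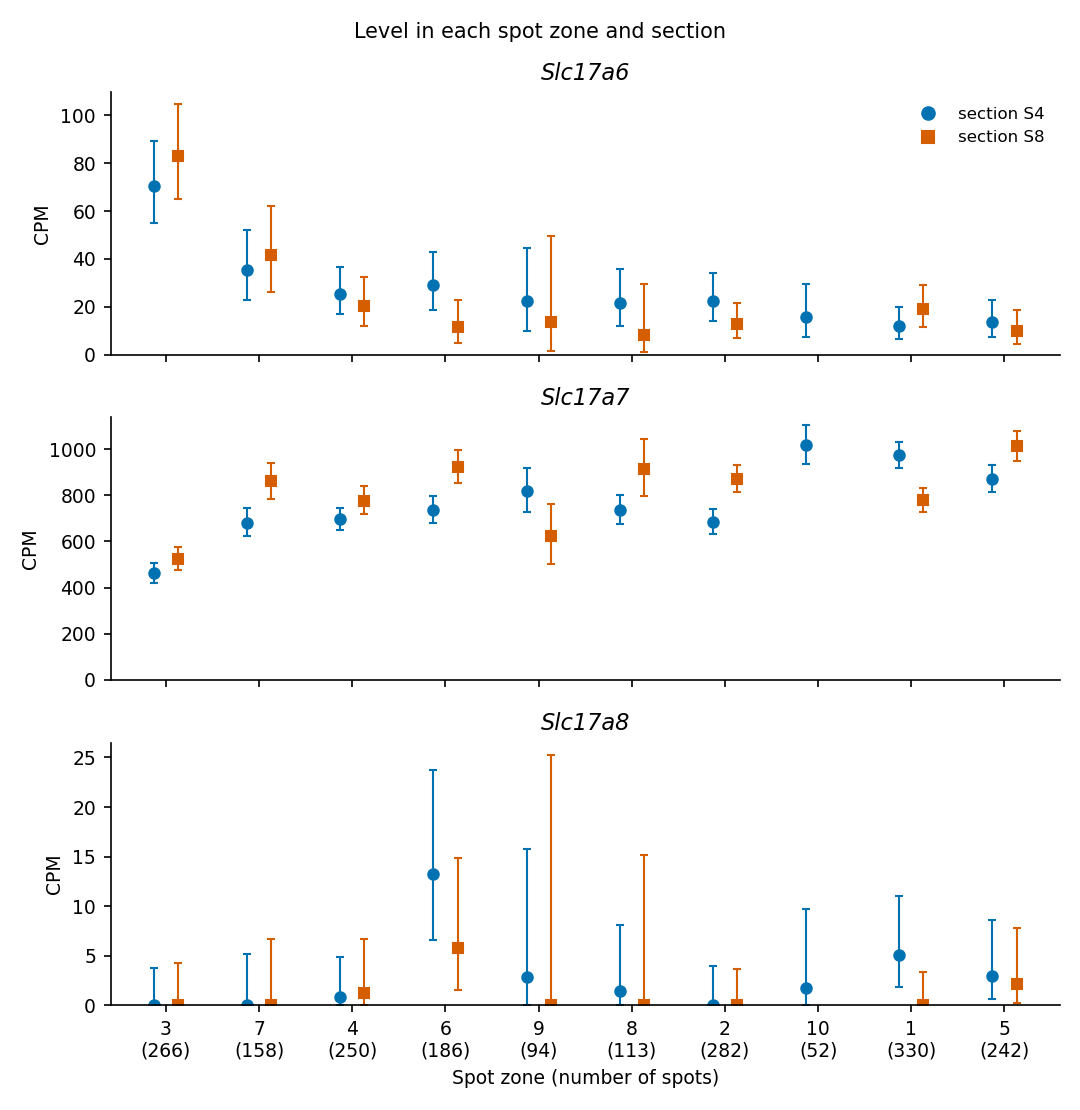
Slc17a6, Slc17a7 and Slc17a8 in each spot zone and section, as CPM of summed counts with exact Poisson 95% intervals that cover counting error only. Zone 3 has the highest Slc17a6 (70.5 and 83.1 CPM) and the lowest Slc17a7 (461.5 and 525 CPM) in both sections, and Slc17a8 is highest in zone 6.

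Other cell type markers also set zone 3 apart. The retrosplenial list without Slc17a6 summed to 479 and 455 CPM in S4 and S8 against 89.0 to 308 in the other sums, with Tshz2 at 255 CPM over both sections. The astrocyte list (6 of 6 genes, 0 at 0 counts) summed to 1902 and 1869 CPM in zone 3, within the 825 to 2783 of the other sums, and the oligodendrocyte list to 2739 and 3342 CPM. Their part in the zone 3 results was not tested.

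In zone 3, 4 of 29 tested genes of vesicular loading and glutamate supply were higher and 2 lower, where 6% and 4.17% of all genes were called higher and lower, and their median was 0.10 beside 0.02 over all genes. Sv2c was again among them, at 35.5 and 48.9 CPM against a mean of 11.9 in the 16 other sums (1.97, SE 0.24, edgeR adjusted p = 6.24e-08). The neuronal glutamine transporters Slc38a2 (0.79, SE 0.14, adjusted p = 3.63e-05) and Slc38a1 (0.67, SE 0.13, adjusted p = 0.000373) were higher, and Slc25a22 (-0.60, SE 0.14, adjusted p = 0.00334) and Sv2b (-0.42, SE 0.11, adjusted p = 0.00744) were lower, as both were in class 8.

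Of 8 tested genes of uptake and glial recycling, 3 were higher in zone 3 and 0 lower, with a median of 0.34 beside 0.02 over all genes. They were Slc25a18, a mitochondrial glutamate carrier of glia (0.55, SE 0.15, edgeR adjusted p = 0.00870), Glul, the glutamine synthetase of astrocytes (0.54, SE 0.09, adjusted p = 2.71e-05), and the astrocyte gap junction gene Gja1 (0.52, SE 0.12, adjusted p = 0.00190). These genes were in the clustering as well, so the counts are a description.

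Slc17a8 was sparse, with 31 counts in 23 of 1973 spots (1.17%). S4 held 24 of the counts in 16 spots (2.84 CPM) and S8 held 7 in 7 spots (1.10 CPM). Zone 6 held 15 counts in 10 of its 186 spots (5.38%, exact binomial 95% interval 2.61 to 9.66%), 11 in S4 (13.2 CPM) and 4 in S8 (5.81 CPM), which is 48.4% of all Slc17a8 counts in 9.43% of the spots. Zone 5 held 5 counts, zone 1 6 counts, all in S4, zone 4 2, and zones 8, 9 and 10 1 each.

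No Slc17a8 count fell in zones 3 and 7, where Slc17a6 was highest, or in zone 2. Zone 3 had 0 of 266 spots with one, which allows a share of up to 1.13%, zone 7 had 0 of 158 (up to 1.90%) and zone 2 had 0 of 282 (up to 1.06%). All 23 spots with Slc17a8 had Slc17a7 and 5 of them had Slc17a6. Too few counts were present for the filtered fit. With no filter on low counts, zone 6 exceeded the mean of the other zones (3.79, SE 0.81, edgeR adjusted p = 0.000715 over 19073 genes, percent of genes called 1.15%), a value whose size depends on the fit's prior count because zones at 0 counts enter that mean. The near-projecting markers other than Slc17a8 summed to 81.9 and 134 CPM in zone 6 and were higher in zone 3 (360 and 328), through Tshz2.

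Genes with the most similar pattern were sought among those with a mean of at least 10 CPM, by Pearson's r of log2(CPM + 1) centred within animal or section. Over the 21 class sums and 8167 genes, Slc17a6 ran closest to Aifm3 (0.81), D4Wsu53e (0.81), Stx3, a syntaxin (0.80), Tmem57 (0.77) and the neurofilament gene Nefm (0.77), and Slc17a7 to Slitrk5 (0.83), the potassium channel subunit Kcnmb4 (0.82), the kappa opioid receptor Oprk1 (0.80), Myl4 (0.80) and Rundc3b (0.80). Over the 18 zone sums and 9301 genes, Slc17a6 ran closest to Rit2 (0.84), Cit (0.80), Ccdc136 (0.79), the nuclear receptor Rora (0.78) and Mb21d2 (0.75), and Slc17a7 to Gnb4 (0.85), Rprd1a (0.81), Tpbg (0.80) and Ptprn (0.80). The r between Slc17a6 and Slc17a7 themselves was -0.62 over class sums and -0.80 over zone sums. By rank correlation it was weaker, at -0.42 and -0.72.

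These values of r are a description, since the sums of 1 animal or section share libraries and depth. Of the 5 closest genes per member, 1 to 4 remained under another pseudocount and 1 to 3 with rank correlation. None of the 5 genes closest to Slc17a6 among cells was among the 5 closest in the sections. Slc17a8, under 5 CPM, was given no such list.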

How the data were processed

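Dissociated cells and Visium sections were compared as counts, whole numbers for each gene in each cell or spot, which the authors deposited without normalization, as read from the values. Per the submitters' processing notes, Seurat and the build NCBIM37 were named for the cells, and Seurat, Space Ranger, NCBIM37 and mm10 for the sections. No aligner is given in the sources used here, nor whether the cell counts are reads or molecules, so intervals and limits (3 counts for a count of 0) cover counting error only. Counting was not stated to use strand. A deposited table gave each cell's animal, and column names gave its sample and level. No column was without a sample (0). All genes and cells of the tables were used.

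Clusters of cells and of spots were drawn in scanpy 1.11.5 (counts scaled to 10000 and logged, 2000 variable genes, 30 components, 15 neighbours, Leiden resolution 1, seed 1). No doublet caller was run. A class was named where every marker of a type led (25% of cells, log2 difference of 1, at least 3 markers). In addition, no other list could have more of its genes among the 10 leading genes of the class. Class 3 met the first condition for layer 5 extratelencephalic cells and failed the second. Counts were summed per animal and class (at least 10 cells, 2 animals), per animal and level, or per section and zone, and entered the quasi-likelihood test of edgeR 4.0.16 (R 4.3.3, TMM, genes kept by filterByExpr), each class or zone against the mean of the others, adjusted by Benjamini-Hochberg over all genes and called under 0.05. CPM use library totals, or TMM library sizes for list genes and similarity. SE is the log2 fold change divided by the square root of F. Alternatives used DESeq2 1.42.0 among others. On simulated counts with planted changes the class test recovered 11 of 99 genes changed by 1 on the log2 scale and 44 of 95 changed by 2, the zone test 65 of 95 and 95 of 98, and the level test 34 of 98 and 65 of 100.

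The animal or section was kept as a block because the sums compared come from the same animals or sections. Sums of the same animal deviated together with a median correlation of 0.079 for classes (other animals -0.040) and 0.19 for levels (-0.11), and those of a section with 0.17 (-0.17). Nothing says that samples of 1 animal came from separate preparations, so p-values for classes and levels rest on animals. Those for zones rest on the 2 sections, whose animals were not identified here.

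The members and the gene lists were chosen with earlier results of these data known. Named genes were the members, up to 3 called genes per direction and list in the tested class and the zone with the highest Slc17a6, the 5 most similar genes (1 of them is not reported here), and 3 leading genes per class or zone. Genes keep the tables' names. No coordinates or sequences are given.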

Additional observations from a re-analysis of the deposited data

How the results depend on the processing

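Slc17a6 in class 8 and zone 3 and Slc17a7 in class 4 and zone 3 kept direction and call in every alternative that gave a value. For Slc17a6 in class 6 the call was lost in 15 of 22 alternatives. These included DESeq2 (2.24), sums per sample (3.79), resolution 1.5 (2.23) and the fit without sample 3 (2.29). Leaving out 1 animal or sample gave 1.83 to 5.65. In class 4 the call was lost with sums of at least 5 cells (-1.93), and leaving out 1 animal gave -6.45 to -1.56. In zone 5 it was lost with DESeq2 (-1.07), without the replicate block (-1.07), and at resolutions 0.5 (-0.69) and 1.5 (-0.43). Without the replicate block Slc17a6 was called lower in class 3 (-3.45), as it was with DESeq2 (-3.32) and in thinned cells (-3.07), and apart from class 3 and zone 5 no call listed here changed with the block. The number of genes called over all classes was 3294, and 1594 to 2873 when 1 animal or sample was left out. Over the zones it was 3102, and 1892 with DESeq2, 1762 without the replicate block and 292 for zones drawn without centring. Posterior over medium for Slc17a7, close to 0, changed sign with DESeq2 size factors (-0.0065), with DESeq2 (-0.0033), and without animal 2 (-0.079) or animal 3 (-0.028), and was 0.12 without animal 1. Within classes, posterior over anterior for Slc17a6 ranged from -0.25 without animal 3 to 0.97 without animal 2, and posterior over medium from -0.76 without animal 3 to 0.60 without animal 2, with 0.15 in thinned cells. The causes of these changes were not tested.

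Shares moved with depth and threshold. Slc17a7 was in 97.4% of thinned cells, 97.0% of cells at 2 or more counts and 87.7% at 5 or more, and both genes were in 14.2% at 5 or more. In spots, Slc17a7 was in 97.0% after thinning and 92.1% at 2 or more counts, Slc17a6 in 11.9% and 3.19%, both in 11.2% and 2.69%, and Slc17a8 in 0.203% at 2 or more. Class 8 gave no value without animal 2 or 3, with sums per sample or at resolution 0.5, and zones 3, 5 and 7 gave none when drawn without centring. Class 8 rests on 2 animals and each zone on 2 sections.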
